A study of Mus musculus with 20 samples.

Results

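Pro-B cells were compared with lymphoid-primed multipotent progenitors (LMPP) on 4 of 20 Affymetrix mouse arrays, chosen by their titles: 2 arrays of pro-B cells and 2 of LMPP. Both populations were sorted from the bone marrow of wild-type C57bl/6 mice aged 8-14 weeks, and no group compared here carried a deletion, transgene or treatment. The other 16 arrays held WT hematopoietic stem cells (HSC, 2 arrays), multipotent progenitors (MPP, 2), common lymphoid progenitors (CLP, 3), CD4 T cells (2) and granulocyte-monocyte progenitors (GMP, 3) of the same strain and age, and mature NK cells of strain 129, 8-14 weeks old, that were Rag2-- Ets1++ (2) or Rag2-- Ets1-- (2). The series was made to find Ets1-dependent genes in NK cells, so pro-B cells and LMPP belonged to its panel of other populations. The labels give neither the sort gates, nor the sex of the mice, nor whether replicates were separate animals. The p-values therefore measure the spread between replicate arrays, which may be technical. For each gene that spread was pooled over the 9 populations on all 20 arrays. Standard errors and p-values below thus rest mostly on the 16 arrays of other populations, and not on the 4 compared arrays alone.

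LMPP are early multipotent progenitors that carry the receptor Flt3 and have largely left the erythroid and megakaryocyte path while still able to give myeloid and lymphoid cells. In the bone marrow, IL-7 and the transcription factors E2A (Tcf3), Ebf1, Foxo1 and Pax5 carry such cells through the common lymphoid progenitor to the pro-B cell. The pro-B cell rearranges its immunoglobulin heavy chain genes with the Rag1 and Rag2 recombinase and makes the surrogate light chain, built of the products of Vpreb1 and Igll1, that pairs with a new heavy chain in the pre-B receptor.

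Values below are log2 RMA intensities, as levels on single arrays or as differences of pro-B minus LMPP. A difference is given with its standard error (SE), and a gene was called at a limma p-value below 0.05 after Benjamini-Hochberg adjustment over the 13478 genes tested. The arrays matched their labels on the markers. All 6 LMPP markers measured (Flt3, Kit, Cd34, Cd27, Hoxa9 and Meis1) were called lower in pro-B cells, and all 10 pro-B markers measured (Cd79a, Cd79b, Ebf1, Pax5, Igll1, Vpreb1, Vpreb3, Rag1, Rag2 and Il7r) were called higher. The other markers listed for these populations were not analysed here.

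Of the 13478 genes, 933 (6.92%) were called higher in pro-B cells and 1389 (10.3%) lower, or 17.2% in either direction, and 3816 had an unadjusted p below 0.05. Differences of at least 1 log2 unit, a 2-fold change, made up 791 of the higher calls (5.87% of the genes tested) and 1199 of the lower calls (8.9%). The median difference of all genes tested was -0.06. Pro-B cells had the highest mean of the 9 populations in 397 (42.6%) of the genes called higher, beside 8.32% of all genes tested. The pro-B mean was the lowest in 527 (37.9%) of those called lower, beside 10.9% of all genes tested. These 2 counts are descriptions, since the calls themselves rest on the pro-B level. Without 1 array the number of higher calls was 923 without pro-B replicate 1, 509 without pro-B replicate 2, 532 without LMPP replicate 1 and 469 without LMPP replicate 2. The lower calls then numbered 1163, 977, 825 and 893 in the same order.

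**Figure D1:**
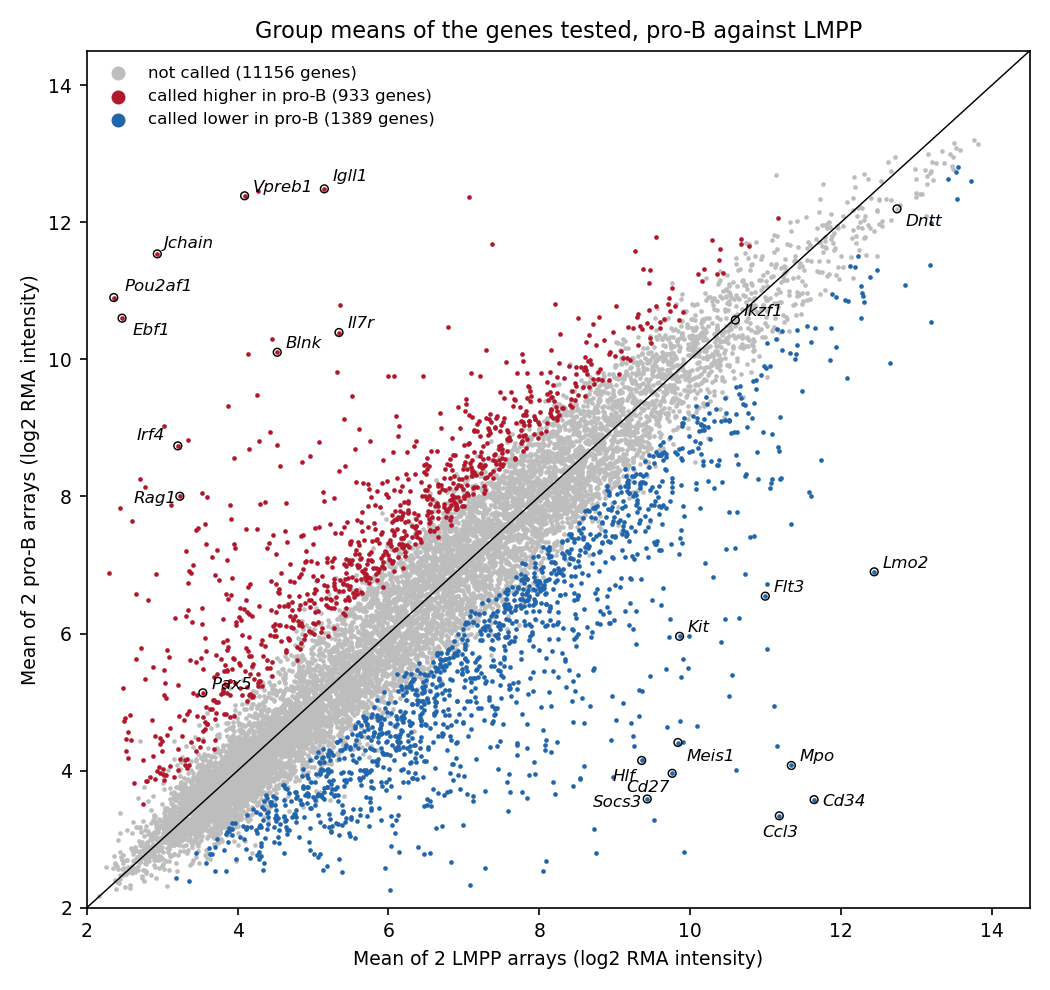
Mean log2 RMA intensity of the 2 LMPP arrays (x axis) against that of the 2 pro-B arrays (y axis), 1 point for each of the 13478 genes tested, coloured by the limma call, with the line of equality. The B lineage genes Vpreb1, Igll1, Pou2af1 and Ebf1 and the plasma cell marker Jchain lie far above the line. Cd34, Ccl3, Mpo and Lmo2 lie far below it, and Dntt and Ikzf1 close to it.

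Several properties of the 4 arrays moved with the comparison, and their part in the results was not tested. Replicates correlated at 0.987 for LMPP and 0.970 for pro-B cells, and arrays of the 2 populations at 0.891 to 0.906, over the genes tested. Pro-B replicate 1 had a shortened upper range: the level exceeded by the top 0.1% of probe sets was 12.39, against 12.98 to 13.48 on the other 19 arrays. For the 279 genes above 11 on the LMPP arrays its values were a median 0.62 below those of pro-B replicate 2, and 1 of these genes was called higher and 65 lower. Without pro-B replicate 1 the calls among them were 15 higher and 41 lower, and without pro-B replicate 2 they were 1 higher and 107 lower. In bulk RNA, fewer cells of a type and less RNA per cell cannot be told apart.

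**Figure D2:**
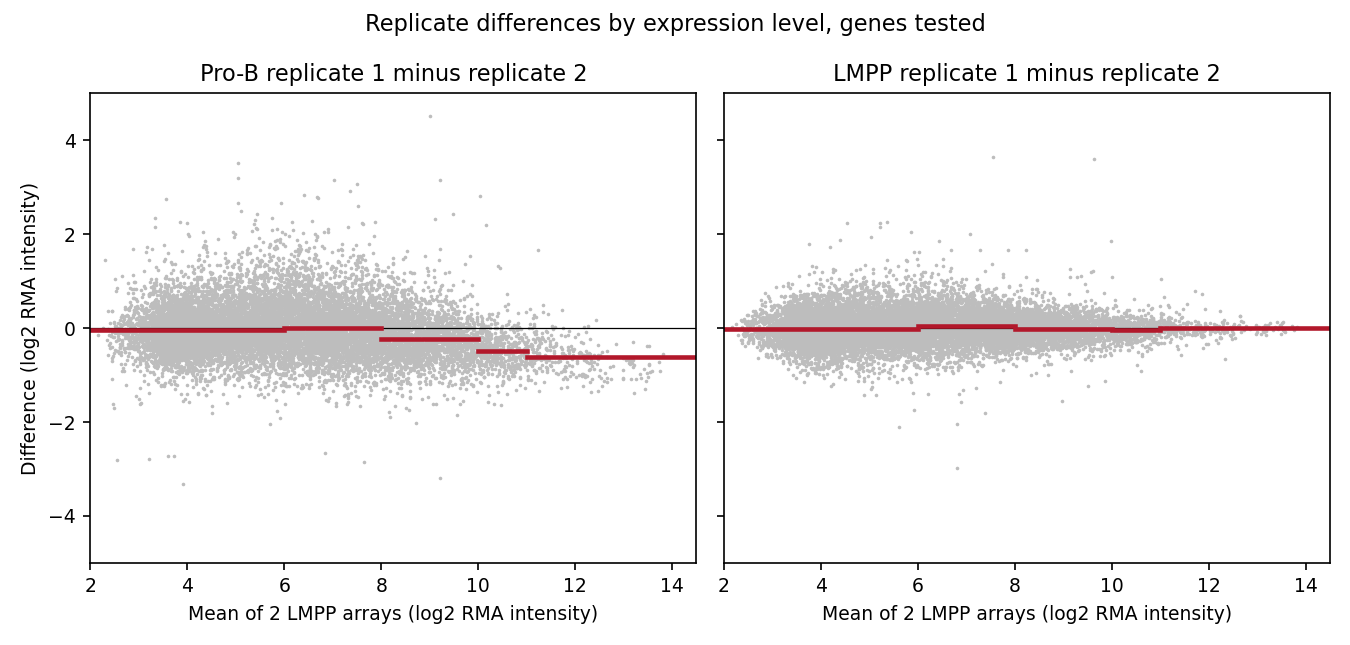
Replicate 1 minus replicate 2 in log2 RMA intensity (y axis) of each gene tested against its mean on the LMPP arrays (x axis), for pro-B (left) and LMPP (right), with the median of each of 5 level classes in red. The pro-B median falls from -0.03 in the lowest class to -0.62 in the highest, and the LMPP medians stay between -0.03 and 0.04.

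The mice of the 2 populations also differed in sex-linked transcripts. Xist, the RNA that coats the inactive X chromosome of females, read 4.13 and 4.14 on the LMPP arrays and 9.87 and 10.29 on the pro-B arrays. The Y-linked translation factor gene Eif2s3y read 7.73 and 8.37 in LMPP and 2.49 and 2.57 in pro-B cells, and the Y-linked demethylase gene Kdm5d read 5.95 and 6.08 against 2.26 and 2.25. Sex and population cannot be told apart in this comparison. Of 407 X-linked genes tested, 26 (6.39%) were called higher and 38 (9.34%) lower, beside 6.95% and 10.3% of the 12994 autosomal genes. Of 5 Y-linked genes tested, 3 were called lower.

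Immediate early genes are those that cells switch on within minutes of a stimulus, and they were a second group of this kind. In a list of 20 written after values had been seen, 17 were called lower in pro-B cells and none higher, beside 10.3% and 6.92% of all genes tested, with a median difference of -2.80. Fosb, a subunit of the AP-1 factor, read 9.50 and 9.02 in LMPP and 4.15 and 4.58 in pro-B cells. Egr1, a zinc-finger factor, read 11.18 and 10.86 against 6.22 and 7.23, and the phosphatase gene Dusp1 read 11.58 on both LMPP arrays against 8.08 and 8.06. No pro-B value of these 3 genes reached an LMPP value, but the genes were picked after values had been seen. The HSC and MPP arrays resembled LMPP: mean Fosb was 9.19 in HSC and 9.84 in MPP, and 3.72 in CLP and 3.32 in GMP. The source of these levels was not tested.

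**Figure D3:**
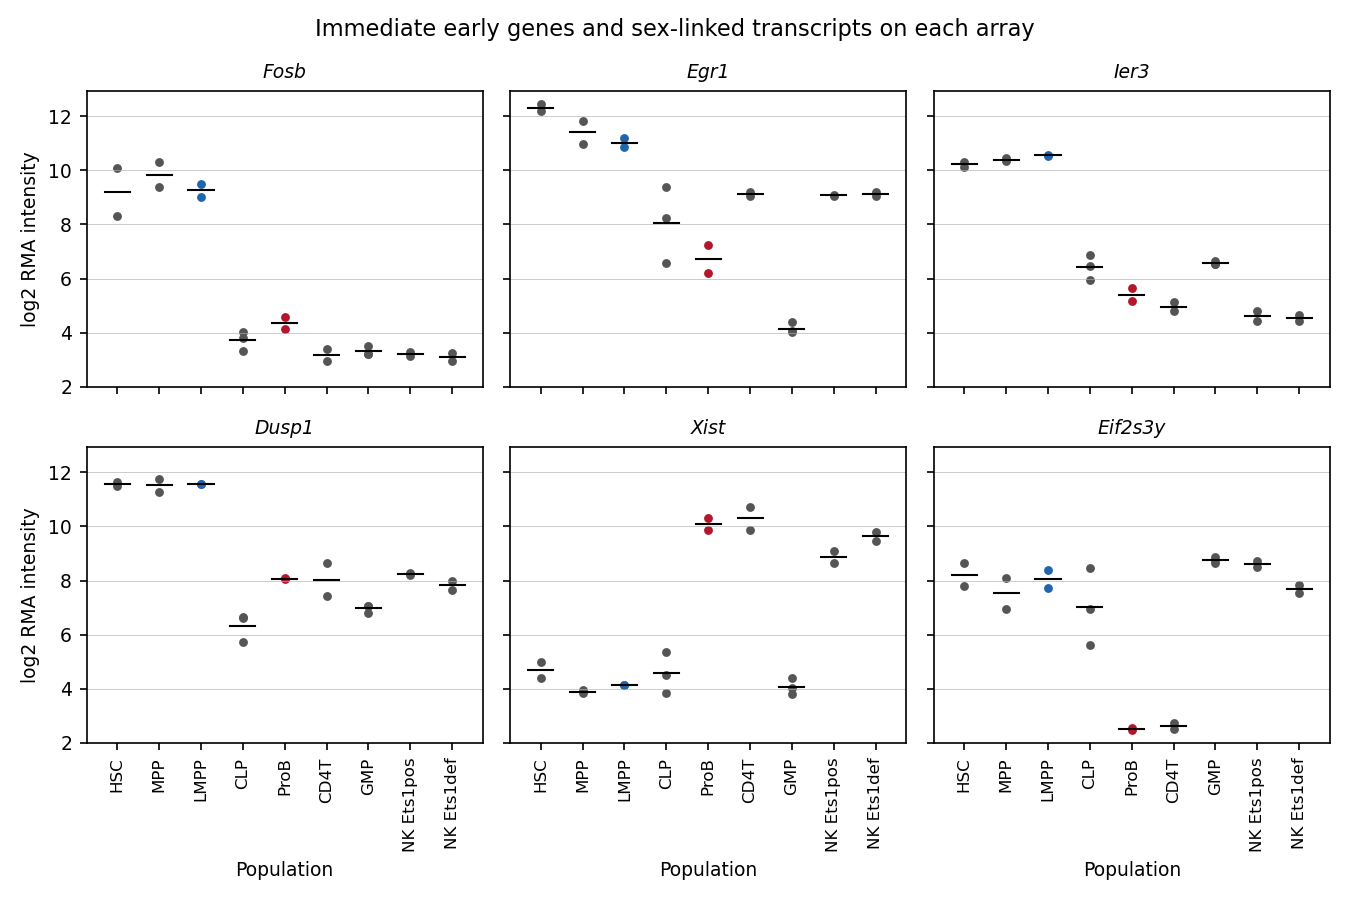
Log2 RMA intensity (y axis) of 4 immediate early genes and 2 sex-linked transcripts on each array (points, LMPP in blue, pro-B in red) by population (x axis), with group means as lines. The 4 immediate early genes are high on the LMPP arrays and lower on the pro-B arrays, and Xist and Eif2s3y have opposite levels in the 2 populations.

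The surrogate light chain genes and other early B genes are shown with the 250 bases before their RefSeq start (GRCm38.p6), because the members that rose furthest include known targets of Ebf1 and E2A. The letters searched, on both strands, were CCCNNGGG for the core of the Ebf1 motif and CAGNTG, which reads CANCTG on the other strand, for an E-box of the E2A kind. Matches are in capitals, and every window lies on the minus strand and is written 5′ to 3′. Igll1 (chr16:16863986-16864235) and Vpreb1 (chr16:16869256-16869505) are neighbours whose starts lie 5270 bases apart. Spib is shown from chr7:44532072-44532321, Cd22 from chr7:30879029-30879278 and Rag1 from chr2:101649533-101649782, as further genes that rose. Cd27 (chr6:125237028-125237277) is shown as a gene that fell and still holds both motifs.
Igll1: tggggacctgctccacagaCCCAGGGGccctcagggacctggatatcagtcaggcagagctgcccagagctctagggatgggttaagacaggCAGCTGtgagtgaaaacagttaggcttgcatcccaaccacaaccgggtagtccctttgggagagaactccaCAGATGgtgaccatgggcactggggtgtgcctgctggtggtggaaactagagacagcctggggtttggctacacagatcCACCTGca
Vpreb1: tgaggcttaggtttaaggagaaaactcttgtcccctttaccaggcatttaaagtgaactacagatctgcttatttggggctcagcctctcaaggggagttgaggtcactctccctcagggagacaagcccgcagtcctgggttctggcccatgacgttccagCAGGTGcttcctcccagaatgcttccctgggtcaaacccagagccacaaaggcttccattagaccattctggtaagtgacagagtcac
Spib: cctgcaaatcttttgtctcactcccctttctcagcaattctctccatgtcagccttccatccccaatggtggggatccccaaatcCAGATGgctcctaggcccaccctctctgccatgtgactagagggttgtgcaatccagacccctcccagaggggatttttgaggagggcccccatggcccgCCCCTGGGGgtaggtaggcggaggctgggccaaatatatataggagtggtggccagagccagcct
Cd22: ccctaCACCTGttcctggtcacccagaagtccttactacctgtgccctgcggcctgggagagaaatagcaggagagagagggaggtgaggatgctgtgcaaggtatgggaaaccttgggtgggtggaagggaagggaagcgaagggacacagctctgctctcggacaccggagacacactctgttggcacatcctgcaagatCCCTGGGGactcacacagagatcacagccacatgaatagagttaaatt
Rag1: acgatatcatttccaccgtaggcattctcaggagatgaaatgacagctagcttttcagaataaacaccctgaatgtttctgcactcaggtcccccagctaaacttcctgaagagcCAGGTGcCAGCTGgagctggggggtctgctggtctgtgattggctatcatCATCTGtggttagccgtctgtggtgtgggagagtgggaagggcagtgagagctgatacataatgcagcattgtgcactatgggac
Cd27: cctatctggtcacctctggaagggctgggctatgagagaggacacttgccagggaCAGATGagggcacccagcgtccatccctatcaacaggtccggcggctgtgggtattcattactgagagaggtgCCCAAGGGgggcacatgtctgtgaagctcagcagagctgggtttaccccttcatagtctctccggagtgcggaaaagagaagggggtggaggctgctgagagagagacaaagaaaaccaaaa

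The Igll1 window held 1 Ebf1 core and 3 E-boxes, Vpreb1 held 1 E-box and no core, and Rag1 held 3 E-boxes and no core. Spib held 2 overlapping cores and 1 E-box, and Cd22 and Cd27 held 1 of each. The windows shown were not a random choice and each held a match. The shares that follow, and not these windows, describe the lists. Of 37 genes in the B lists below that were called higher, 30 had a RefSeq window, and 5 of these (16.7%: Bank1, Cd22, Foxo1, Igll1 and Spib) held the Ebf1 core. The core was in 13.4% of 27025 genes with a window, and in 9 of 29 genes (31.0%) of the progenitor lists that were called lower. E-boxes were in 18 of the 30 B genes (60.0%), in 9 of the 29 progenitor genes (31.0%) and in 48.2% of all genes. The PU.1 letters GAGGAAGT were in 3 of the 30 and none of the 29, against 2.79% of all, and the GATA letters AGATAA in none of the 30 and 3 of the 29, against 11.4% of all. Median GC content was 55.2% in the B windows and 60.4% in the progenitor windows, against 52.4% in all. A match describes letters and not a bound site.

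The B lineage transcription factors split into genes that rose, some by several log2 units, and genes such as Tcf3, Ikzf1 and Myb that were not called. Of 27 tested, 12 were called higher and 2 lower, beside 6.92% and 10.3% of all genes, and the list's median difference was 0.75 against -0.06 for all genes tested. Ebf1, the factor that specifies the B lineage, read 2.53 and 2.41 on the LMPP arrays and 9.79 and 11.41 on the pro-B arrays, a difference of 8.13 (SE 0.37, n = 2 arrays each, limma adjusted p = 3.1e-11). Both LMPP values lay near the bottom of the array range, and the 2 pro-B replicates differed by more than 1 log2 unit from each other. Pou2af1, the B cell coactivator OCA-B, rose from 2.23 and 2.49 to 10.62 and 11.19 (difference 8.54, SE 0.55). Pax5, which holds B cell commitment, rose from 3.41 and 3.67 to 5.36 and 4.91 (difference 1.60, SE 0.28), and both of its probe sets were called higher. The Pax5 step was small beside those of Ebf1 and Pou2af1.

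Irf4, a factor of the light chain and plasma cell programmes, read 3.42 and 3.00 in LMPP against 8.54 and 8.93 in pro-B cells (difference 5.53, SE 0.36), although 1 of its 2 probe sets was not called. Spib, an ETS factor of B cells, rose by 4.52 (SE 0.25), the repressor gene Bach2 by 3.94 (SE 0.37) and the Ikaros-family gene Ikzf3 (Aiolos) by 3.92 (SE 0.30). Of 3 probe sets tested for each, 2 were called for Bach2 and 1 for Ikzf3. Averaging the probe sets gave differences of 2.60 for Bach2 and 1.41 for Ikzf3. Other members of the list that were called higher were Lef1 (3.49), Foxo1 (3.31), the E-protein inhibitor gene Id3 (3.21), E2f2 (3.02) and Ets1 (2.38). Klf2, a factor of quiescence and trafficking, fell by 2.93 and Sox4, a factor of early B progenitors, fell by 1.61. The Sox4 call was lost without pro-B replicate 1 and without LMPP replicate 2, with an adjusted p (limma) of up to 0.0983.

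A further 13 members of the list were not called. Tcf3, which encodes the E2A proteins, read 8.66 and 8.78 in LMPP and 8.81 and 9.17 in pro-B cells (difference 0.27, limma adjusted p = 0.68). Ikzf1, which encodes Ikaros, read 10.68 and 10.51 against 10.47 and 10.67, and its groups overlapped. Myb, Bcl11a, Mef2c, Irf8 and Aff3 had differences between -0.85 and -0.24. Tcf12, another E-protein gene, had a difference of 0.85 and Bcl6 one of 0.75, while Id2, an inhibitor of E-proteins, had one of -1.27 (limma adjusted p = 0.064).

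Genes of the pre-B receptor and the B cell surface mostly rose. Of 23 tested, 14 were called higher and 2 lower, beside 6.92% and 10.3% of all genes, with a median of 1.54. A 24th member (Fcer2a) was too dim to test. Vpreb1 read 3.82 and 4.36 in LMPP and 11.84 and 12.93 in pro-B cells, a difference of 8.29 (SE 0.43, limma adjusted p = 1.3e-10). Igll1, which encodes lambda 5, read 5.09 and 5.21 against 12.07 and 12.90, a difference of 7.34 (SE 0.33). For both genes the lower pro-B value came from replicate 1, and the replicate gap was a small part of the difference. Vpreb3, a chaperone-like relative, rose from 4.34 and 4.23 to 8.92 and 8.68.

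Cd79a and Cd79b encode the signalling pair of the B cell receptor. Cd79a rose from 3.47 and 3.72 to 8.13 and 7.86 (difference 4.40, SE 0.26), and Cd79b from 5.97 and 6.03 to 9.25 and 10.25 (difference 3.75, SE 0.48). Enpep, the aminopeptidase known as BP-1 on early B cells, rose by 5.55 (SE 0.25), and Cd22, an inhibitory lectin of B cells, by 4.61 (SE 0.34). Ms4a1, which encodes CD20, rose from 2.64 and 2.97 to 6.39 and 6.58, and Bst1, which encodes the BP-3 antigen, by 3.07. The remaining higher calls were Ly6d, Siglecg, Fcrla, Cd37 and Cd72, between 1.25 and 2.13. The Cd72 call did not hold without pro-B replicate 1, pro-B replicate 2 or LMPP replicate 2 (limma adjusted p up to 0.275). Ptprc, which encodes CD45, fell from 11.40 and 11.42 to 10.05 and 10.11 and Cd93 from 10.93 and 10.74 to 9.53 and 9.82. For Cd93 the probe sets disagreed, since 1 of 5 was called higher and 1 lower, and for Ptprc 1 of 2 was called lower. Neither gene was called when its probe sets were averaged (limma adjusted p = 0.205 for Ptprc and 0.837 for Cd93).

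The 7 tested surface genes that were not called include markers that early B cells share with progenitors. Cd24a read 11.69 and 11.83 in LMPP and 12.23 and 12.87 in pro-B cells, and Spn, which encodes CD43, read 10.17 and 10.39 against 9.44 and 10.21. Cd81 was level, at 9.45 and 9.32 against 9.23 and 9.54. Il2ra, which encodes the CD25 chain found on small pre-B cells, stayed at 3.25 or below on all 4 arrays.

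Below the receptor, adaptor and kinase genes such as Blnk, Blk and Prkcb rose, while Btk, Syk and Plcg2 were not called. In the list of 24 signalling genes, 10 were called higher and 2 lower, beside 6.92% and 10.3% of all genes. The median was 0.29. Blnk, the adaptor that links the receptor to phospholipase C, rose from 4.55 and 4.50 to 9.58 and 10.63, a difference of 5.58 (SE 0.37, limma adjusted p = 2.96e-09). Prkcb, a protein kinase C gene, rose by 5.23 (SE 0.37), from 4.85 and 3.66 to 9.27 and 9.68, and the Src-family kinase gene Blk by 4.76 (SE 0.29), from 3.04 and 3.18 to 7.92 and 7.83. Pik3ap1, an adaptor of PI3 kinase, rose by 2.69 and the scaffold gene Bank1 by 2.33. The guanine exchange factor genes Rasgrp1 (1.45), Rasgrp3 (1.39) and Vav2 (1.25) were also called, the last 2 of these not without pro-B replicate 2 or LMPP replicate 2 (limma adjusted p up to 0.131).

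Dapp1, an adaptor that binds PI3 kinase lipids, moved the other way, from 9.35 and 9.22 to 6.62 and 6.04 (difference -2.96, SE 0.36). Malt1, a paracaspase of NF-kB signalling, read 6.35 and 5.25 in LMPP and 4.69 and 2.82 in pro-B cells, and its call was lost without pro-B replicate 2 and without LMPP replicate 1 (limma adjusted p up to 0.417). Averaging the Malt1 probe sets also ended its call (limma adjusted p = 0.097). Btk read 7.85 and 8.09 against 8.11 and 8.42, Syk 9.53 and 9.64 against 9.07 and 9.29, and Plcg2 10.70 and 10.99 against 10.16 and 10.38, and none was called. Pik3cd could not be placed, because its pro-B arrays read 11.09 and 7.93.

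In V(D)J recombination the lymphocyte-specific nuclease rose and most of the general repair machinery was not called. Of 14 genes tested, 3 were called higher and none lower in the limma fit, beside 6.92% and 10.3% of all genes, and 4 had an unadjusted p below 0.05. Rag1 read 3.56 and 2.91 in LMPP and 8.50 and 7.51 in pro-B cells, a difference of 4.77 (SE 0.43, limma adjusted p = 1.93e-07). Lig4, the ligase that seals the joined ends, read 3.60 and 3.18 against 6.91 and 6.85 (difference 3.49, SE 0.29). Rag2 read 5.55 and 5.47 against 7.74 and 6.28, a 2.83-fold rise (SE 0.42 on the log2 scale, limma adjusted p = 0.0175). The Rag2 call was lost without pro-B replicate 1 and without either LMPP replicate (limma adjusted p up to 0.267), and its difference without single arrays lay between 0.77 and 2.23.

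Dntt encodes terminal transferase, which adds untemplated bases at the joins. It was already high in LMPP, at 12.72 and 12.76, and read 11.65 and 12.74 in pro-B cells, so it was not called (difference -0.55, limma adjusted p = 0.39). The lower of the pro-B values came from the array with the shortened upper range. Among the end-joining genes, Xrcc5 had a difference of 0.53, Xrcc6 of -0.02, Prkdc of -0.61, Xrcc4 of -0.63 and Nhej1 of 0.58.

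IL-7 pathway genes moved in both directions. In this list of 19 genes, 3 were called higher and 10 lower, beside 6.92% and 10.3% of all genes. The median was -1.09. Il7r, the IL-7 receptor alpha chain, read 5.90 and 4.79 in LMPP and 10.25 and 10.53 in pro-B cells, a difference of 5.05 (SE 0.43, limma adjusted p = 9.56e-08). Crlf2, which pairs with it in the TSLP receptor, fell from 9.81 and 9.66 to 7.63 and 8.22. The kinase gene Jak3 fell by 1.62, Jak1 by 1.22, and the transcription factor genes Stat5b by 1.31 and Stat3 by 1.09, whereas Stat5a had a difference of -0.90 (limma adjusted p = 0.089). The Jak1 call was lost without any 1 of the 4 arrays, and that of Stat3 without pro-B replicate 2 or either LMPP replicate (limma adjusted p up to 0.201 and 0.0894). Stat5b and Jak1 were not called when the probe sets of a gene were averaged (limma adjusted p = 0.0720 and 0.119). Il2rg, the shared gamma chain, was not analysed here.

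Among feedback inhibitors and targets the members moved in both directions. Socs3, a feedback inhibitor of STAT3 signalling, fell from 9.31 and 9.55 to 3.51 and 3.66, a difference of -5.84 (SE 0.55) seen on all 3 of its probe sets. Socs2 rose from 3.89 and 4.04 to 7.12 and 7.39 (difference 3.29, SE 0.42), with 2 of its 3 tested probe sets called. Cish and Socs1 had differences of -0.09 and 0.30. Ccnd3, the D-type cyclin of early B cell division, rose from 8.24 and 8.19 to 10.71 and 10.89 (difference 2.59, SE 0.27), though only 1 of its 3 probe sets was called. The proto-oncogenes Myc (-1.60), Mycn (-1.77) and Pim1 (-1.37) fell, the last not called without pro-B replicate 1 or LMPP replicate 1 (limma adjusted p up to 0.0939). Mycn was not called when its probe sets were averaged (limma adjusted p = 0.102).

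Immunoglobulin genes were measured by probe sets that near-identical copies can share, so their identity is uncertain. Igha read 4.13 and 4.39 in LMPP and 12.13 and 12.77 in pro-B cells, with all 3 of its probe sets called higher. The brightest Ighm probe set read 11.13 on both LMPP arrays and 12.46 and 12.90 in pro-B cells and was not called (limma adjusted p = 0.44), while 7 of the 10 Ighm probe sets tested were called higher. Jchain, which joins IgM and IgA into polymers, rose from 2.99 and 2.88, near the low end of the array range, to 11.39 and 11.68 (8.60, SE 0.37, limma adjusted p = 2.87e-11). Of the 5 plasma cell markers, Jchain, Tnfrsf17 (1.44) and Sdc1 (1.05) were called higher. Prdm1 read 2.81 and 2.93 against 3.42 and 2.59 and Xbp1 8.84 and 9.26 against 9.14 and 9.91, and neither was called. The Sdc1 call was lost without either pro-B replicate or LMPP replicate 2 (limma adjusted p up to 0.254). Summed linear intensity of the 5 markers was 538 and 676 in LMPP and 3372 and 4385 in pro-B cells. Jchain gave most of the pro-B sums and Xbp1 most of the LMPP sums. Among 4 mature B cell markers tested, Cd22, Ms4a1 and Ccr7 were called higher and Cr2 was not, and the fifth, Fcer2a, was dim. The part of plasma or mature B cells in these values was not tested.

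**Figure D4:**
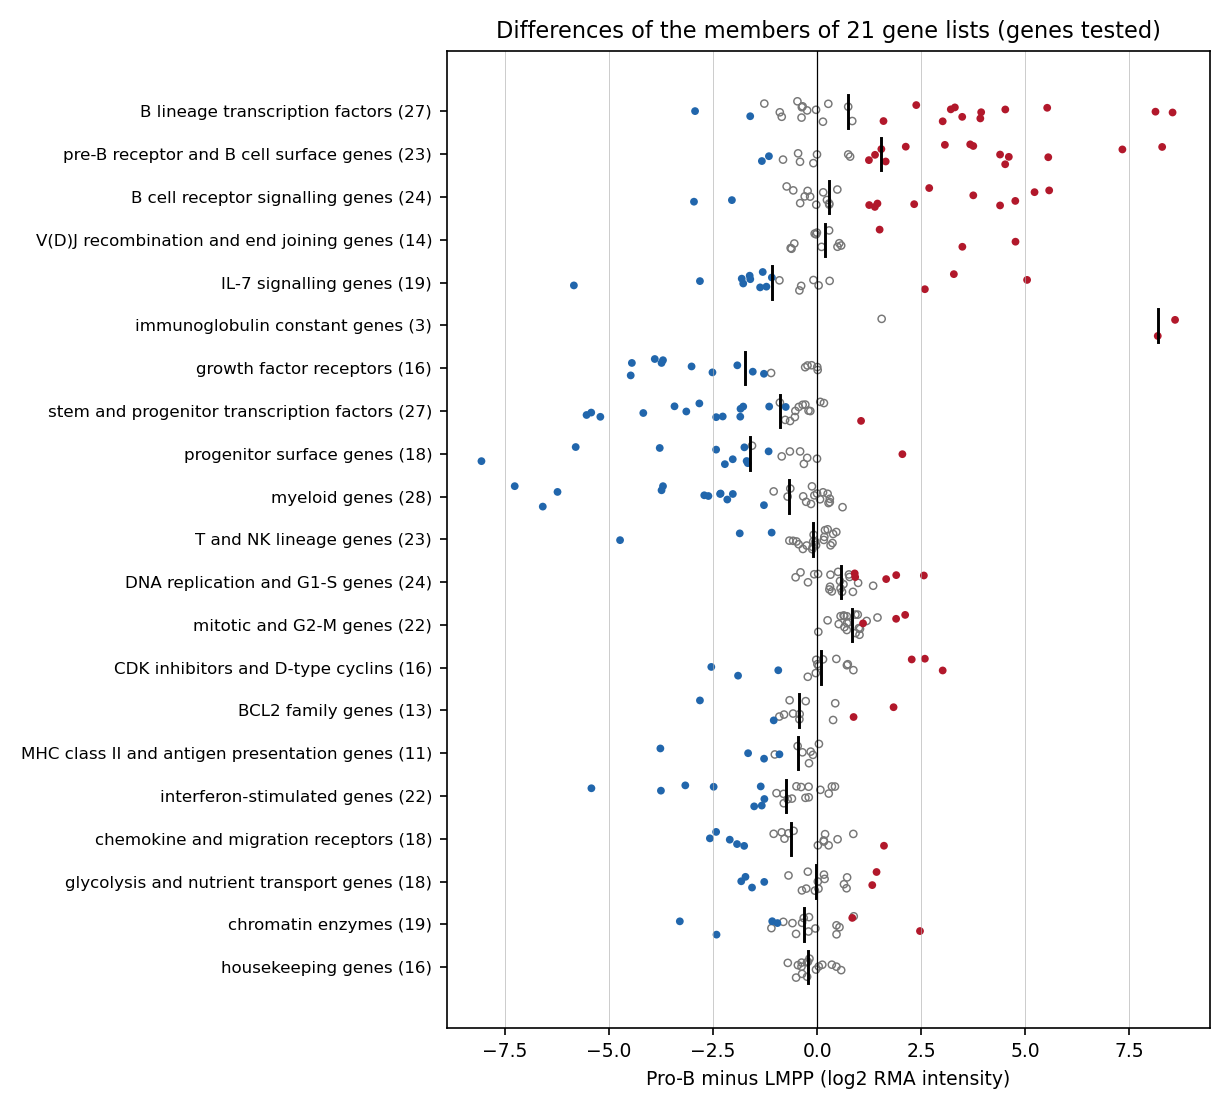
Pro-B minus LMPP difference in log2 RMA intensity (x axis) of each gene tested in 21 lists (y axis, number tested in brackets), with called genes filled in red (higher) or blue (lower), genes not called open, and the median of each list as a black bar. The B lineage lists reach beyond 8 log2 units, the progenitor and myeloid lists lie mostly below 0, and the 16 housekeeping genes lie between -0.70 and 0.58.

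Most growth factor receptors of early progenitors were called lower. Of 16 tested, 10 were called lower and none higher in the limma fit, beside 10.3% and 6.92% of all genes, with a median of -1.73, and 11 had an unadjusted p below 0.05. Flt3, the receptor that marks LMPP, averaged 10.99 in LMPP (SD 0.0072, n = 2) and read 6.72 and 6.37 in pro-B cells, a difference of -4.45 (SE 0.43, limma adjusted p = 4.07e-07). Kit, the stem cell factor receptor, fell from 9.57 and 10.15 to 6.05 and 5.87 (difference -3.90, SE 0.49), with 1 of its 2 probe sets called. Il1r1, the IL-1 receptor, averaged 9.98 in LMPP and 5.50 in pro-B cells (difference -4.48, SE 0.24). The myeloid receptor genes Csf1r and Csf3r fell by 3.74 and 3.70, the IL-6 receptor gene Il6ra by 3.02, and Csf2rb, the shared beta chain of the GM-CSF, IL-3 and IL-5 receptors, by 2.51. For Il6ra 1 of 2 probe sets was called. Igf1r (-1.92), Il6st (-1.54) and Csf2ra (-1.28) completed the calls, the last lost without pro-B replicate 1 or LMPP replicate 1 (limma adjusted p up to 0.146). Il6st and Csf2ra were not called when their probe sets were averaged (limma adjusted p = 0.0637 and 0.395). Tgfbr2, Ifngr1, Il3ra, Epor and Tek had differences between -0.29 and 0.01, and Il18r1 one of -1.10 (limma adjusted p = 0.051).

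Many stem and progenitor transcription factors were called lower as well. In the list of 27, 14 were called lower and 1 higher, beside 10.3% and 6.92% of all genes, with a median of -0.89. Lmo2, a bridging factor of stem cell complexes, fell from 12.37 and 12.51 to 6.99 and 6.81, a difference of -5.54 (SE 0.40, limma adjusted p = 1.06e-08). Meis1, a homeobox cofactor, read 9.89 and 9.79 against 5.18 and 3.64 (difference -5.43, SE 0.51), and Hlf, a bZIP factor of stem cells, read 9.49 and 9.22 against 4.19 and 4.11 (difference -5.21, SE 0.32). The SCL gene Tal1, a partner of Lmo2, fell by 4.17 (SE 0.32), and Hoxa9 from 10.90 and 10.79 to 7.44 and 7.41. Each of these 5 genes, named for the largest differences of the list, had LMPP and pro-B values at least 3 log2 units apart. Hmga2, Etv6, Mecom and Gata2 fell by 3.14, 2.83, 2.42 and 2.27. Averaging probe sets gave smaller differences for Meis1 (-2.83) and Mecom (-0.83), both still called.

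The smaller changes in this list were less steady. Hhex (-1.15) and Hoxa10 (-0.75) lost their calls when single arrays were left out, Hhex without pro-B replicate 2 or either LMPP replicate and Hoxa10 without any 1 of the 4 arrays (limma adjusted p up to 0.0706 and 0.196). Zfpm1, a GATA cofactor, was the 1 member called higher, by 1.06, and was not called without pro-B replicate 1 or LMPP replicate 2 (limma adjusted p up to 0.123). Runx1 read 8.34 and 8.26 in LMPP and 8.01 and 8.18 in pro-B cells, Gfi1 7.15 and 7.26 against 7.20 and 7.55, and Erg 9.83 and 9.70 against 8.83 and 9.66, and none was called.

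On the progenitor surface, 10 of 18 genes were called lower and 1 higher, beside 10.3% and 6.92% of all genes. The median was -1.61. Cd34, the sialomucin that marks progenitors, read 11.66 and 11.63 in LMPP and 3.09 and 4.06 in pro-B cells, a difference of -8.06 (SE 0.45, limma adjusted p = 3.51e-10). Cd27, a TNF receptor family member, fell from 9.77 and 9.75 to 4.31 and 3.62 (difference -5.80, SE 0.32). Procr, the endothelial protein C receptor of stem cells, fell by 3.78, the hyaluronan receptor gene Cd44 by 2.42, and Adgrg1, an adhesion receptor gene, by 2.22. Thy1 went the other way, from 4.12 and 3.59 to 6.22 and 5.59 (difference 2.05, SE 0.32). Cd48 had a difference of -1.56 (limma adjusted p = 0.053), and Esam, called at -1.16, was not called without pro-B replicate 2 or LMPP replicate 2 (limma adjusted p up to 0.072).

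Several myeloid genes that read high in LMPP were near the low end of the array range in pro-B cells, while others were low in both or high in both. Of 28 tested, 12 were called lower and none higher in the limma fit, beside 10.3% and 6.92% of all genes. Their median was -0.68, and 13 had an unadjusted p below 0.05. Mpo, which encodes myeloperoxidase, fell from 11.15 and 11.53 to 4.33 and 3.83, a difference of -7.26 (SE 0.40, limma adjusted p = 3.51e-10). The primary granule protease gene Prtn3 read 10.15 and 11.06 against 4.21 and 3.82, and Ctsg 8.89 and 10.13 against 3.36 and 3.19. LMPP replicate 2 was the higher one for all 3 genes. Cebpa, a factor of granulocyte and monocyte fate, fell from 5.46 and 5.72 to 3.18 and 3.36, Cebpb by 2.16, Cebpd by 2.33, and Spi1, which encodes PU.1, from 7.79 and 7.73 to 5.82 and 5.66. Lyz2 fell by 2.71 and Cst7 by 2.61. The secondary granule genes Ltf, Camp and Ngp and the calgranulin genes S100a8 and S100a9 lay at 5.01 or below on all 4 arrays, with differences between 0.00 and 0.31. Elane, which encodes the primary granule protease neutrophil elastase, was low in both, at 4.61 and 4.99 against 4.64 and 4.29. Anxa1, which encodes annexin A1, was high in both, at 9.77 and 9.82 against 10.04 and 10.06. F13a1, the coagulation factor XIII A chain gene, read 4.57 and 6.67 against 6.48 and 5.99. None of these 3 genes was called.

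Over the 9 markers of neutrophils and their precursors, summed linear intensity was 3995 and 6320 in LMPP and 165 and 151 in pro-B cells, with 3 markers (Mpo, Prtn3 and Ctsg) called lower. On the GMP arrays mean Mpo was 13.89, above the LMPP mean of 11.34. Over 7 macrophage markers the sums were 411 and 707 against 141 and 106, with Csf1r and Cd68 called lower, while Adgre1 and the complement genes C1qa, C1qb and C1qc lay at 4.31 or below on all 4 arrays. The part of other cells in the LMPP sort was not tested.

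T and NK lineage genes were mostly low in both populations. Of 23 tested, 3 were called lower and none higher in the limma fit, beside 10.3% and 6.92% of all genes. Their median was -0.09, and 4 had an unadjusted p below 0.05. Notch1, the receptor that drives T cell fate, fell from 10.49 and 10.28 to 8.39 and 8.67 (difference -1.86, SE 0.31). Nkg7, a granule gene of NK cells, fell from 9.26 and 9.23 to 4.97 and 4.05 (difference -4.73, SE 0.33), while the other 4 NK markers, Gzma, Prf1, Ncr1 and Il2rb, lay at 4.60 or below on all 4 arrays. Nfil3 fell by 1.09 and was not called without pro-B replicate 1 or either LMPP replicate (limma adjusted p up to 0.124). Cd3d, Cd3g, Bcl11b and Gata3 lay at 4.03 or below on all 4 arrays, and none of the 6 T cell markers was called.

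**Figure D5:**
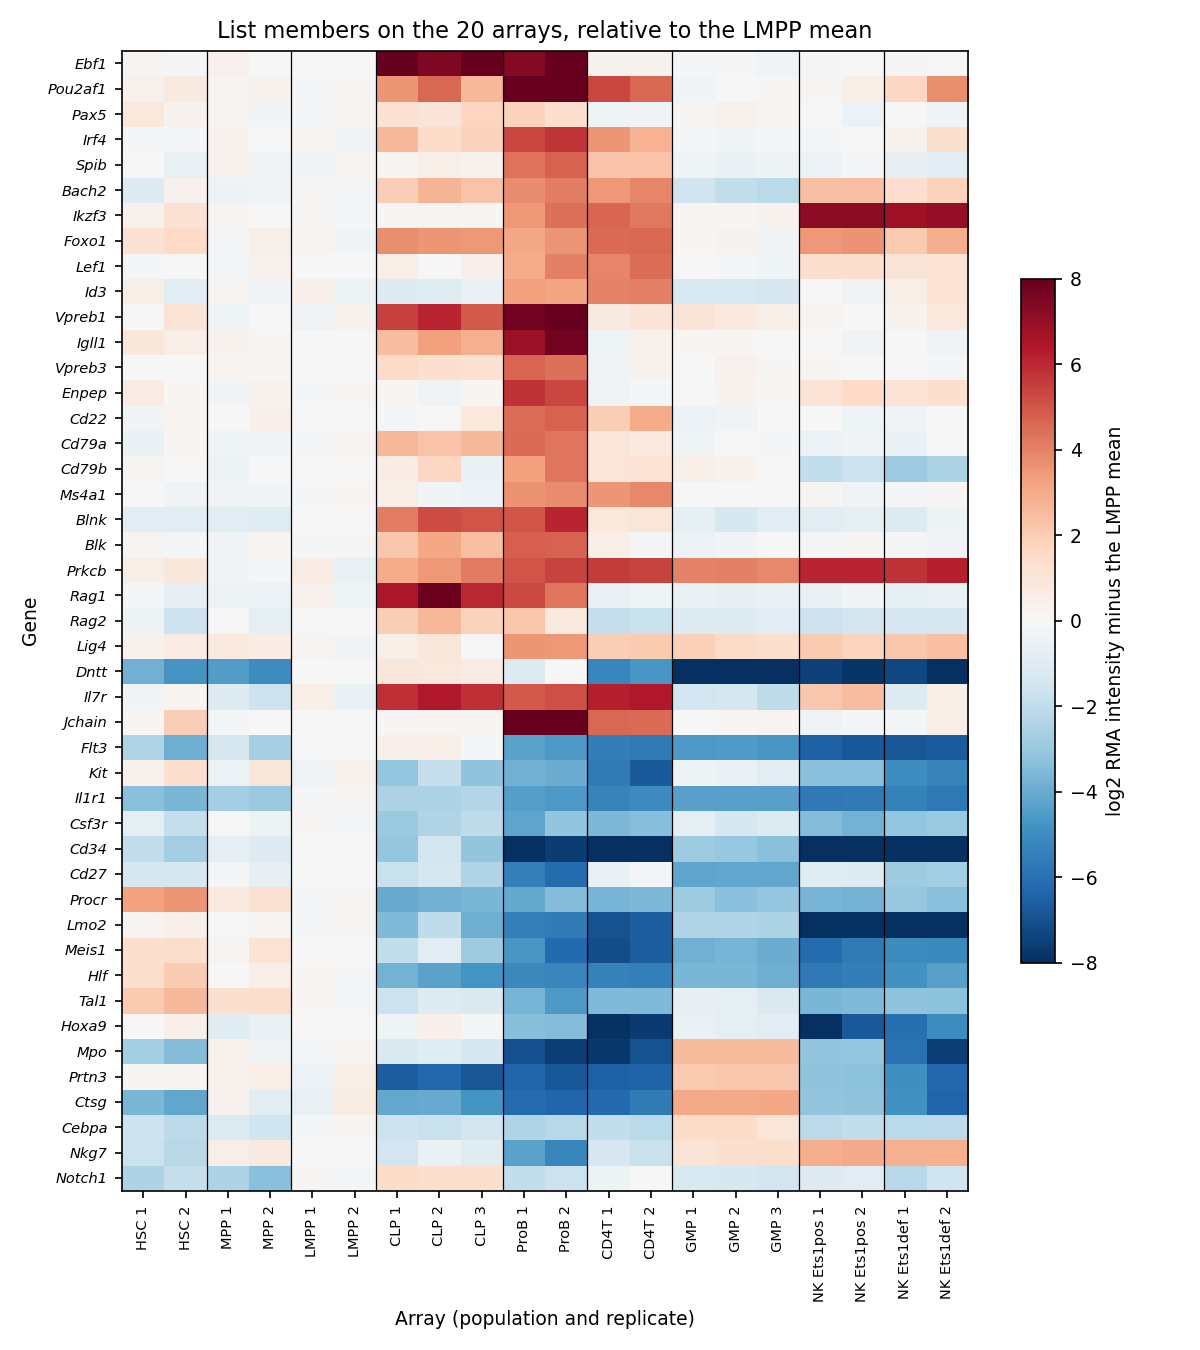
Log2 RMA intensity of 45 list members (rows) on each of the 20 arrays (columns) minus the mean of the 2 LMPP arrays, in colour from -8 to 8, with lines between populations. Ebf1, Rag1 and Il7r were also high on the CLP arrays, while Spib, Cd22 and Jchain were high on the pro-B arrays and nearer to the LMPP level on the CLP arrays.

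Across the other populations, the B genes fell into those shared with CLP and those high in pro-B cells. Mean Ebf1 was 10.40 in CLP and 10.60 in pro-B cells, against 2.29 to 2.76 in the other 7 populations. Rag1 averaged 10.01 in CLP and 8.00 in pro-B cells, and Il7r 11.37 and 10.39, with a still higher mean of 11.66 in CD4 T cells. Blnk averaged 9.31 and 10.10. For Igll1 the CLP mean was 8.01 and the pro-B mean 12.49, and for Vpreb1 they were 9.58 and 12.38. Pou2af1 averaged 5.93 in CLP, 7.32 in CD4 T cells and 10.90 in pro-B cells. The plasma cell marker Jchain averaged 3.11 in CLP, 7.52 in CD4 T cells and 11.54 in pro-B cells. The CLP arrays had the largest spread between replicates, a root mean square SD of 0.56 against 0.40 for pro-B and 0.24 for LMPP. Their housekeeping genes had medians of -0.72, -0.26 and -1.17 relative to the mean of the 20 arrays. On the LMPP and pro-B arrays these medians were 0.16 to 0.42. The part of this weaker signal in the CLP levels was not tested, and no difference from CLP was tested here.

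Progenitor genes differed in how near their CLP level lay to that of LMPP. Flt3 averaged 11.26 in CLP, close to 10.99 in LMPP, and Hoxa9 10.86 against 10.85, while the pro-B means were 6.55 and 7.42. Kit averaged 7.15 in CLP, 9.86 in LMPP and 5.96 in pro-B cells, and Hlf 5.10, 9.36 and 4.15. Cd34 averaged 9.05 in CLP and 11.64 in LMPP, and its pro-B mean of 3.58 was near the 3.28 of CD4 T cells. These levels are given as a description, and the weaker signal of the CLP arrays applies to them too.

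Cell cycle genes mostly had differences above 0, and the number called depended on the fit. Of 24 DNA replication and G1-S genes, 5 were called higher and none lower in the limma fit, beside 6.92% and 10.3% of all genes. Their median was 0.58, and 9 had an unadjusted p below 0.05. Of 22 mitotic and G2-M genes, 3 were called higher and none lower, beside the same shares of all genes. Their median was 0.84, and 7 had an unadjusted p below 0.05. All 22 had differences above 0, but genes of the cycle move together and are not independent. Ccne2 and Ccne1, the E-type cyclins of S phase entry, rose from 5.09 and 4.64 to 7.18 and 7.68 and from 7.15 and 7.25 to 8.84 and 9.36. Plk1, a mitotic kinase gene, rose from 7.05 and 7.09 to 9.40 and 8.98. Fen1 rose by 0.90, and Rfc4 (1.66), Orc1 (0.92), Kif11 (1.90) and Aurka (1.10) were called in the full data. Mki67 read 11.84 and 11.90 against 11.73 and 12.51 and Pcna 12.16 and 12.22 against 11.81 and 11.78, and neither was called.

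With only the 4 compared arrays in the fit, 6 of the G1-S and 11 of the G2-M genes were called, and with the replicate block 8 and 11. Fen1 was not called in either of these fits. Orc1 was not called on the 4 arrays alone, with no filter on dim genes, with housekeeping centring or with array weights. The counts also moved with single arrays. Of the G1-S genes 7 were called without pro-B replicate 1 and 3 without pro-B replicate 2 or either LMPP replicate. Of the G2-M genes 2, 1, 1 and 2 were called without pro-B replicate 1, pro-B replicate 2, LMPP replicate 1 and LMPP replicate 2. Rfc4 and Orc1 lost their calls without pro-B replicate 2 or either LMPP replicate, Kif11 without pro-B replicate 2 or LMPP replicate 1, and Aurka without any 1 of the 4 arrays (limma adjusted p up to 0.286 over these genes).

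Among 16 genes of cyclin D control, 3 rose and 3 fell, beside 6.92% and 10.3% of all genes, with a median of 0.09. E2f2 rose from 5.43 and 5.41 to 8.52 and 8.36 (difference 3.02, SE 0.25), and the retinoblastoma gene Rb1 from 6.05 and 5.78 to 8.35 and 8.04 (difference 2.27, SE 0.50), beside the gain of Ccnd3. Ccnd1 fell by 1.90 on all 3 of its probe sets, and Ccnd2 was level, at 10.42 and 10.25 against 10.01 and 10.73. Cdk6, the kinase partner of D-type cyclins, fell by 0.93, a call lost without pro-B replicate 1 or LMPP replicate 2. Averaging the Cdk6 probe sets also ended its call (limma adjusted p = 0.200). Rbl2 read 7.30 and 7.96 against 6.19 and 3.98, and its call was lost without pro-B replicate 2 or either LMPP replicate (limma adjusted p up to 0.353). The CDK inhibitor genes Cdkn1a, Cdkn1b and Cdkn1c had differences between -0.03 and 0.01, and Cdkn2a and Cdkn2b were dim.

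In the BCL2 family, which sets the threshold for cell death, 2 of 13 genes rose and 2 fell. This compares with 6.92% and 10.3% of all genes, and the median was -0.42. Bcl2 itself fell from 8.82 and 9.46 to 6.27 and 6.38, a difference of -2.81 (SE 0.27, limma adjusted p = 4.96e-07), with 2 of its 5 probe sets called lower and none higher. Bcl2l1, which encodes the survival protein BCL-XL, had a difference of 0.88, and Bok rose by 1.84, from 5.65 and 5.34 to 6.68 and 7.98. Mcl1 read 10.91 and 10.58 against 9.87 and 10.77 and was not called. Bmf, a BH3-only gene, fell by 1.04. The calls of Bcl2l1 and Bmf were lost without any 1 of the 4 arrays (limma adjusted p up to 0.230), which left 2 called genes without pro-B replicate 1 or either LMPP replicate. Averaging probe sets also ended the calls of Bcl2l1 and Bmf (limma adjusted p = 0.159 and 0.940). The Bmf difference was then -0.03.

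Antigen presentation genes fell or did not pass. Of 11 tested, 4 were called lower and none higher in the limma fit, beside 10.3% and 6.92% of all genes. Their median was -0.47, and 5 had an unadjusted p below 0.05. H2-DMa, which edits peptides on class II molecules, fell from 9.85 and 9.58 to 6.26 and 5.64 (difference -3.76, SE 0.33), and H2-Ob, its modulator, by 1.66. H2-Aa read 9.67 and 8.59 against 7.59 and 8.13, and H2-DMb2 had a difference of -0.90. The last 3 lost their calls when single arrays were left out (limma adjusted p up to 0.297), and 2 genes were called without pro-B replicate 2 and 1 without LMPP replicate 1. H2-DMb2 was also not called with averaged probe sets, with no filter on dim genes, with repeated quantile normalization or with housekeeping centring. With every probe set tested on its own, none of its 3 was called. H2-Ab1 was level, at 8.29 and 7.86 against 7.89 and 8.34, and Cd74 read 6.86 and 6.09 against 6.56 and 6.08.

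Of 22 interferon-stimulated genes, 8 were called lower and none higher in the limma fit, beside 10.3% and 6.92% of all genes. Their median was -0.75, and 12 had an unadjusted p below 0.05. Ifitm1, a membrane protein that blocks virus entry, read 10.12 and 10.91 in LMPP and 4.51 and 5.68 in pro-B cells, a difference of -5.42 (SE 0.38), and Ifitm3 fell by 3.17. Oasl2 fell from 6.53 and 6.58 to 2.79 and 2.82 and Rsad2, which encodes viperin, by 2.48. For Rsad2 1 of 3 probe sets was called. Ifi27 fell by 1.35, and Irf9 (-1.33), Rtp4 (-1.27) and Ifitm2 (-1.51) lost their calls when single arrays were left out, which left 5 calls without LMPP replicate 2 (limma adjusted p up to 0.106). Mx1, Ifit1, Ifit2 and Ifit3, also targets of interferon, were not called, with differences between -0.80 and 0.36.

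Of 18 chemokine and migration receptors, 5 were called lower and 1 higher, beside 10.3% and 6.92% of all genes. The median was -0.63. Itgb7, an integrin beta chain of gut homing, fell by 2.57, Selplg, the selectin ligand, by 1.75 and Robo4 by 2.10, beside Cd44. Ccr9, the receptor of thymus homing, read 6.30 and 4.15 in LMPP and 3.16 and 3.45 in pro-B cells, and its difference of -1.92 was -0.85 without LMPP replicate 1, where it was not called (limma adjusted p = 0.152). Ccr7 rose by 1.61 and was not called without pro-B replicate 1 (limma adjusted p = 0.0619). Cxcr4, the receptor that holds B cell precursors in the marrow, read 7.52 and 5.86 against 7.24 and 7.89 and was not called.

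Glycolysis and nutrient transport genes moved in both directions. Of 18, 2 were called higher and 4 lower, beside 6.92% and 10.3% of all genes, with a median of -0.02. The amino acid transporter gene Slc7a5 rose from 5.75 and 5.79 to 7.01 and 7.38 and the transferrin receptor gene Tfrc by 1.33. The glucose transporter gene Slc2a3 fell by 1.56, and the glycolytic genes Aldoc, Hk1 and Pfkl by 1.82, 1.72 and 1.27. Tfrc lost its call without any 1 of the 4 arrays and Hk1 without pro-B replicate 2 or either LMPP replicate (limma adjusted p up to 0.141), which left 4 calls without any 1 of these 3 arrays. Ldha, Pkm, Aldoa and Tpi1 had differences between -0.22 and 0.18.

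Among 19 chromatin enzymes and organisers, 2 were called higher and 4 lower, beside 6.92% and 10.3% of all genes. The median was -0.32. Satb1, an organiser of lymphoid chromatin, fell from 10.78 and 10.69 to 8.29 and 8.36 (difference -2.42, SE 0.27), and the demethylase gene Kdm5b from 7.51 and 7.90 to 4.54 and 4.27 (difference -3.30, SE 0.34). For Kdm5b 2 of 4 probe sets were called, and averaging its probe sets gave a difference of -1.20. Hdac9 rose from 5.18 and 4.99 to 7.56 on both pro-B arrays. Smarca4 (0.85), Dnmt3b (-0.95) and Ezh1 (-1.08) were called in the full data and lost their calls when single arrays were left out (limma adjusted p up to 0.287), which left 3 calls without pro-B replicate 2 or LMPP replicate 1. Averaging probe sets also ended the calls of Ezh1 and Smarca4 (limma adjusted p = 0.717 and 0.0597). The Ezh1 difference was then -0.14. Ezh2, Dnmt1 and Bmi1 had differences of 0.47, -0.19 and 0.47.

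None of 16 housekeeping genes was called in the limma fit, 1 had an unadjusted p below 0.05, and their median was -0.23. The largest differences were those of Eef2 (-0.70, limma adjusted p = 0.074) and Psmb4 (0.58, limma adjusted p = 0.37).

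The largest changes outside the lists were of several kinds. Mzb1, a chaperone of immunoglobulin assembly, rose from 4.52 and 4.38 to 10.14 and 10.45 (difference 5.85, SE 0.44). St6gal1, the sialyltransferase that makes the ligand of CD22, rose from 5.64 and 5.09 to 10.42 and 11.16, with 1 of its 2 probe sets called, and the kinase anchor gene Akap12 from 3.46 and 3.23 to 8.75 and 8.90. Ccl3, an inflammatory chemokine, read 11.30 and 11.06 in LMPP and 3.22 and 3.47 in pro-B cells (difference -7.84, SE 0.50). Its mean was 5.36 in HSC and 6.62 in MPP, below the LMPP mean of 11.18. Rgs1, a regulator of G protein signalling, fell from 11.26 and 11.04 to 4.39 and 4.34, and Gcnt2, a glycosyltransferase gene, from 9.93 and 9.91 to 2.86 and 2.76. Adgrl4, Vldlr and Ctla2b fell by 6.16, 5.95 and 5.56. On each of these genes the LMPP and pro-B arrays lay more than 4 log2 units apart. That follows from their choice as the largest differences and adds no support.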

How the data were processed

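RNA of cells sorted into lysis buffer was amplified in 2 rounds and hybridised as biotin-labelled cRNA, per the labels' protocols. The authors deposited 1 linear intensity for each of 45101 probe sets and 20 arrays, made with RMA (background correction, quantile normalization, probe summary) per the submitters' processing notes, whose version the sources used here do not give. The design had assumed log2 values, so log2 was taken first. Two-round amplification favours the 3' ends of transcripts. Probe sets were named from the platform annotation (34945 with 1 symbol, 932 with several, 9224 with none here), and 34741 were matched by Entrez ID to RefSeq GRCm38.p6. Each of 18193 genes was read from its brightest single-symbol probe set, and 13478 genes whose value passed the median of 2 or more arrays were tested, while 4715 were too dim. Group means of 9 populations on 20 arrays were fitted with limma 3.58.1 in R 4.3.3 (lmFit, eBayes with intensity trend, 11 residual degrees of freedom) and adjusted by Benjamini-Hochberg, which was tested on simulated data. The number of arrays limits the precision. The members, lists and tests were chosen with earlier results of these data known. Named are the 12 largest calls in each direction (no unnamed gene models or antigen receptor segments), up to 6 called members of each of 21 lists (the 2 largest where none was called), the LMPP and pro-B markers, and other list members where needed to describe a list. The lists of immediate early and sex-linked genes were chosen after values were seen. Of 538 list and marker entries, 51 had no gene here and were not analysed. Alternatives changed the filter, probe set rule, trend, normalization, arrays fitted, array weights and replicate block, or left out single arrays.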

Additional observations from a re-analysis of the deposited data

How the results depend on the processing

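Across 17 alternatives, none of the 173 called list and marker genes changed direction, 45 lost their call in at least 1 alternative, and 16 of these only where 1 array was left out. Direction could not change in the alternatives that keep the same difference of group means. Among these were both filters, no trend, the 4 arrays alone, no CLP arrays, the replicate block and the 2-fold rule. With every probe set on its own, list genes were still read from their brightest one. Averaging the probe sets of a gene ended 21 of the calls. Among them were Aurka, Bcl2l1, Bmf, Ccr9, Cd93, Cdk6, Csf2ra, Ezh1, H2-DMb2, Hk1 and Hoxa10. The others were Il6st, Jak1, Kif11, Malt1, Mycn, Ptprc, Rfc4, Smarca4, Stat5b and Vav2. Leaving out 1 array ended 22 to 28 of the calls. Without 1 array the higher calls numbered 469 to 923 and the lower calls 825 to 1163, against 933 and 1389 in the full data. Called members without 1 array were 3 to 7 of the G1-S genes, 1 to 2 of the G2-M genes, 2 to 3 of the BCL2 family, 1 to 3 of the MHC class II genes, 5 to 7 of the interferon-stimulated genes, 3 to 5 of the chromatin enzymes and 0 to 1 of the housekeeping genes. With every probe set on its own, which multiplies the features, 1710 were higher and 2186 lower. The fit without the CLP arrays, the group of largest spread, called 1466 higher, and in it 9 G1-S, 5 G2-M, 10 migration and 1 housekeeping gene. Repeated quantile normalization called 9 G1-S, 5 G2-M, 2 BCL2 family and 2 housekeeping genes. Centring on housekeeping genes called 5 G2-M, 2 BCL2 family and 1 housekeeping gene. The 4 arrays alone called 11 G2-M genes, array weights 6 G2-M and 1 housekeeping gene, and the 2-fold rule 3 G1-S genes. With pro-B replicate 2 as the single pro-B array and no CLP arrays, an alternative chosen after seeing the data in which the lone array is assumed to vary like the other groups, 1660 genes were higher, among them 11 G1-S, 5 G2-M and 3 housekeeping genes (2 higher, 1 lower). The replicate numbers gave no sign of pairing, with a correlation of 0.02 over only 2 pairs, and the replicate block called 1500 higher and 1955 lower, with 8 G1-S and 11 G2-M genes. The causes of these shifts were not tested, except where the alternative changes the number of features, arrays or the fold required. Calls of small differences, and of dim probe sets, are limited by 2 arrays a group and by signal near background.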

Other observations

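Genes outside the lists, picked here after their values were seen, included secreted factors and receptors with large differences between the 2 populations. Angpt1, the ligand of the TIE2 receptor, read 9.85 and 9.97 in LMPP and 4.46 and 4.37 in pro-B cells (difference -5.49, SE 0.46). The chemokine gene Ccl9 read 9.31 and 10.43 against 4.82 and 4.63, Cxcl2 read 8.12 and 6.45 against 2.46 and 2.69, and Il15, a growth factor of NK cells, read 6.81 and 6.85 against 2.80 and 2.54. Pdgfrb, the receptor of PDGF known from stromal cells, read 8.07 and 8.09 in LMPP and 2.54 and 2.82 in pro-B cells, while of the 6 stromal markers Col1a1, Col1a2, Cxcl12 and Lepr lay at 3.90 or below on all 4 arrays. The other stromal markers were Pecam1, at 3.36 and 4.22 against 3.92 and 3.76, and Vim, which blood cells also express, at 11.11 and 11.23 against 9.85 and 11.01. In the other direction, Il33, an alarmin cytokine gene, read 2.22 and 2.37 in LMPP and 7.62 and 6.16 in pro-B cells (difference 4.59, SE 0.29). Lgr5, an R-spondin receptor known from intestinal stem cells, read 3.35 and 3.36 against 7.31 and 6.52, and Gfra1, the GDNF receptor, 3.59 and 3.72 against 7.54 and 6.69. All 8 of these genes with large differences were called by limma without overlap of the arrays. That follows from how they were picked and adds no support.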
